A study of Homo sapiens with 12 samples.

Results

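The 9 genes described here are widely used readouts of the aryl hydrocarbon receptor (AHR): CYP1A1, CYP1B1, AHRR, TIPARP, NQO1, ALDH3A1, UGT1A6, FOXQ1 and SLC7A5. They were taken as a fixed list of names, with no measured value in the rule, and all 9 were found among the 57820 gene IDs of the count files and passed the low-count filter of the test. RNA came from AsPC-1, an established human pancreatic adenocarcinoma line, grown in 4 groups of 3 libraries lettered A, B and C. The cells received either a scrambled control (siControl) or an siRNA that targets ARNT (siARNT), and were then kept at 21% O2 (normoxia) or at 1% O2 for 24 h (hypoxia), with harvest 48 h after transfection in every group. All groups thus share the cell line, the transfection reagent and the culture, and differ, per the labels, in siRNA and oxygen only. No group received an AHR ligand or a perturbation of AHR itself, so AHR-ARNT activity at rest and under hypoxia was approached through ARNT alone. Loss of AHR-ARNT and loss of other pairs that ARNT forms cannot be told apart in this design.

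AHR is a ligand-activated transcription factor that waits in the cytoplasm in a chaperone complex, moves to the nucleus when a ligand binds, and pairs there with ARNT to bind a short DNA core, GCGTG. ARNT is also the partner of the hypoxia-inducible factors HIF-1alpha and HIF-2alpha, with which it binds a related core, ACGTG. Because both pathways draw on the same partner, hypoxia and AHR signalling are often studied for competition, and the crossing of oxygen with ARNT knockdown allows the AHR target genes to be read in either state. The genes fall into drug-metabolising enzymes (CYP1A1, CYP1B1, NQO1, ALDH3A1, UGT1A6), feedback repressors of AHR (AHRR, TIPARP), a transcription factor (FOXQ1) and an amino acid transporter (SLC7A5).

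The promoters shown are those of 4 members that fell with siARNT at both oxygen levels and whose windows hold the AHR-ARNT core, to let it be seen in place. Each is the 250 bases before a RefSeq start site in GRCh38.p14, read 5′ to 3′ on the strand of the gene, and capitals mark GCGTG or, for a core on the other strand, CACGC. The CYP1A1 window lies at chr15:74725529-74725778 (minus strand), that of TIPARP at chr3:156674340-156674589, that of AHRR at chr5:321464-321713 and that of UGT1A6 at chr2:233691452-233691701 (all 3 on the plus strand).
CYP1A1: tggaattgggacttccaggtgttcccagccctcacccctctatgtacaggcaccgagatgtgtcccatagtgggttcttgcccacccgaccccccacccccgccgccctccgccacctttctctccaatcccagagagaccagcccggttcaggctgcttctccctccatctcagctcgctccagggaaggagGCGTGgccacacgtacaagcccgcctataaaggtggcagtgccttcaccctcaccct
TIPARP: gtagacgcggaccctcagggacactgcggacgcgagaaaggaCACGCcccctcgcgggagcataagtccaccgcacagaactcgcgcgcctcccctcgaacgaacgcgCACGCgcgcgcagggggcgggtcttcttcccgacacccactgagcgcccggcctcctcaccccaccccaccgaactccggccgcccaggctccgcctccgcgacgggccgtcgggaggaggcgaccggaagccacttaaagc
AHRR: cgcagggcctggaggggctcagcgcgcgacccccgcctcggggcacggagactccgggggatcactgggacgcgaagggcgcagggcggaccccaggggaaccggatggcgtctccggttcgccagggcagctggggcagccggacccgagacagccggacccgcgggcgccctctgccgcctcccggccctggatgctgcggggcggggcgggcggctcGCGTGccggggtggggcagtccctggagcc
UGT1A6: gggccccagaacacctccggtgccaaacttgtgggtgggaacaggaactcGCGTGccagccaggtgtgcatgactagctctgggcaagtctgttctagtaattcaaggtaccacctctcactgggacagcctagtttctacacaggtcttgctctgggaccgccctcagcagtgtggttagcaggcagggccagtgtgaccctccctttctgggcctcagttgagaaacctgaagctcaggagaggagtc

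The table holds 1 window for CYP1A1, 2 each for AHRR and UGT1A6 and 3 for TIPARP, and the first of each gene, which holds the core, is printed. In these windows the core stood 57 to 53 bases before the start of CYP1A1, 30 to 26 before that of AHRR, 200 to 196 before that of UGT1A6 and, on the other strand, at 208 to 204 and 142 to 138 before that of TIPARP. The other AHRR window held it at 247 to 243 and 42 to 38 bases before its start, whereas the second UGT1A6 window and the other 2 TIPARP windows had no match. In the CYP1A1 window, the HIF-ARNT core on the other strand (CACGT) followed at 48 to 44 bases before the start. Over windows that also take in the 50 bases after the start, the RefSeq table held 11 for 7 of the members, and GCGTG was present on either strand in 7 of the 11, in 6 of the 7 genes. Among all 35116 windows of that length, not matched for GC content, 36.5% held it, a share by window and not by gene. FOXQ1 had none in its window, and CYP1B1 and ALDH3A1 had no entry in the table. NQO1, which also fell at both oxygen levels, had none in its 250 bases and held it at bases 2 to 6 from the start. SLC7A5, which was not called with siARNT, held it 173 to 169 bases before its start. Both of these were on the other strand. ACGTG was present in 2 of the 11 windows, those of CYP1A1 and SLC7A5, against 21.4% of all windows. The longer form TNGCGTG, which contains GCGTG, was in 3 of the 11 (AHRR, UGT1A6 and NQO1) against 5.51% of all. A match describes letters and no binding was measured here. Gene positions below are those of GENCODE 29 in GRCh38, matched on the gene ID without its version, and the IDs are printed as the count files give them.

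The libraries held 38.53 to 84.34 M gene counts. ARNT fell in every siARNT library: it was at 60.7, 63.6 and 63.0 CPM (reads of a gene per 1000000 gene reads, with TMM library sizes) in normoxia siControl and 70.3, 64.9 and 72.2 in hypoxia siControl, and with siARNT at 13.3, 12.8 and 14.0 in normoxia and 16.0, 15.8 and 14.1 in hypoxia. Knockdown thus left 21.4% of the mean level in normoxia and 22.2% in hypoxia. The ductal carcinoma markers KRT8, KRT18, KRT19, EPCAM and CEACAM6 were each at 250 CPM or more in all 12 libraries, but MUC1 was at 13.5 to 43.7 CPM and KRT7 at 1.1 to 4.01. The acinar markers PRSS1, CPA1 and CELA3A held at most 2 counts in a library and INS held none. Summed endocrine, fibroblast, endothelial and leukocyte markers reached at most 1.2 CPM for any list. Ductal markers themselves moved with siARNT in normoxia, where KRT7, KRT8, KRT18 and EPCAM rose and CEACAM6 fell, and their part in the results below was not tested. The highest KRT7, KRT8 and KRT18 levels were in normoxia siARNT B, the library that favoured GC-rich genes most (below). The labels describe triplicate wells of 1 line, so p-values measure the spread between wells and libraries, which may be technical. In bulk RNA, fewer expressing cells and less RNA per cell cannot be told apart.

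Per kilobase of exon, NQO1 was the highest of the genes in normoxia siControl at 205 ± 3.04 CPM per kb (mean ± SD, n = 3, as for all group values), followed by TIPARP at 46.4 ± 2.99. SLC7A5 followed at 11.9 ± 0.986, CYP1B1 at 7.83 ± 0.69, AHRR at 6.63 ± 0.326 and ALDH3A1 at 5.7 ± 0.736. The last 2 of these did not differ beyond their spread. FOXQ1 at 1.89 ± 0.156, CYP1A1 at 1.48 ± 0.0597 and UGT1A6 at 0.127 ± 0.0144 were the lowest. In hypoxia siARNT, CYP1A1 stood at the bottom of this order at 0.00883 ± 0.00467 CPM per kb, below UGT1A6.

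ARNT knockdown in normoxia, the comparison that reads the battery at rest, lowered 6 of the 9 genes: CYP1A1, CYP1B1, AHRR, TIPARP, UGT1A6 and NQO1. The P450 genes fell most, with 3% of the mean CYP1A1 level and 8.19% of the mean CYP1B1 level left, while the AHR repressors AHRR and TIPARP kept 30.4% and 25.2%. NQO1 kept 67.5%. ALDH3A1, FOXQ1 and SLC7A5 did not pass the test. A gene was called where edgeR's quasi-likelihood test gave a Benjamini-Hochberg adjusted p under 0.05, and 20.2% of the 16999 tested genes were called in this comparison (9.42% up and 10.8% down). By edgeR none of the 9 rose, also at an unadjusted p under 0.05, and DESeq2 likewise called 0 up. Their median log2 fold change was -1.14, beside 0.01 over all tested genes. Groups did not overlap for the 6 called genes, all lower, and 23.3% of all tested genes were lower without overlap. With a log2 change of at least 1 also required, 5 of the 9 were called, against 2.63% of all tested genes.

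In hypoxia the knockdown lowered 8 of the 9 genes, SLC7A5 being the exception, against 29.1% of all tested genes called (14.4% up and 14.7% down). With library totals as the only scaling that split was 3473 genes up and 1973 down, in place of 2452 and 2496. The median over the 9 was -1.53, beside 0.02 over all. The 8 genes were lower without overlap between groups, as were 20.2% of all tested genes. With the log2 change of at least 1, 6 of the 9 were called, against 4.45% of all. CYP1B1 kept 2.73% of its mean level, AHRR 14.4% and TIPARP 14.0%, so that for these 3 genes and for CYP1A1 the siARNT difference was larger in hypoxia than in normoxia, a contrast tested below as an interaction. NQO1 kept 69.4%. The libraries of this comparison are all different from those of the one in normoxia.

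**Figure D1:**
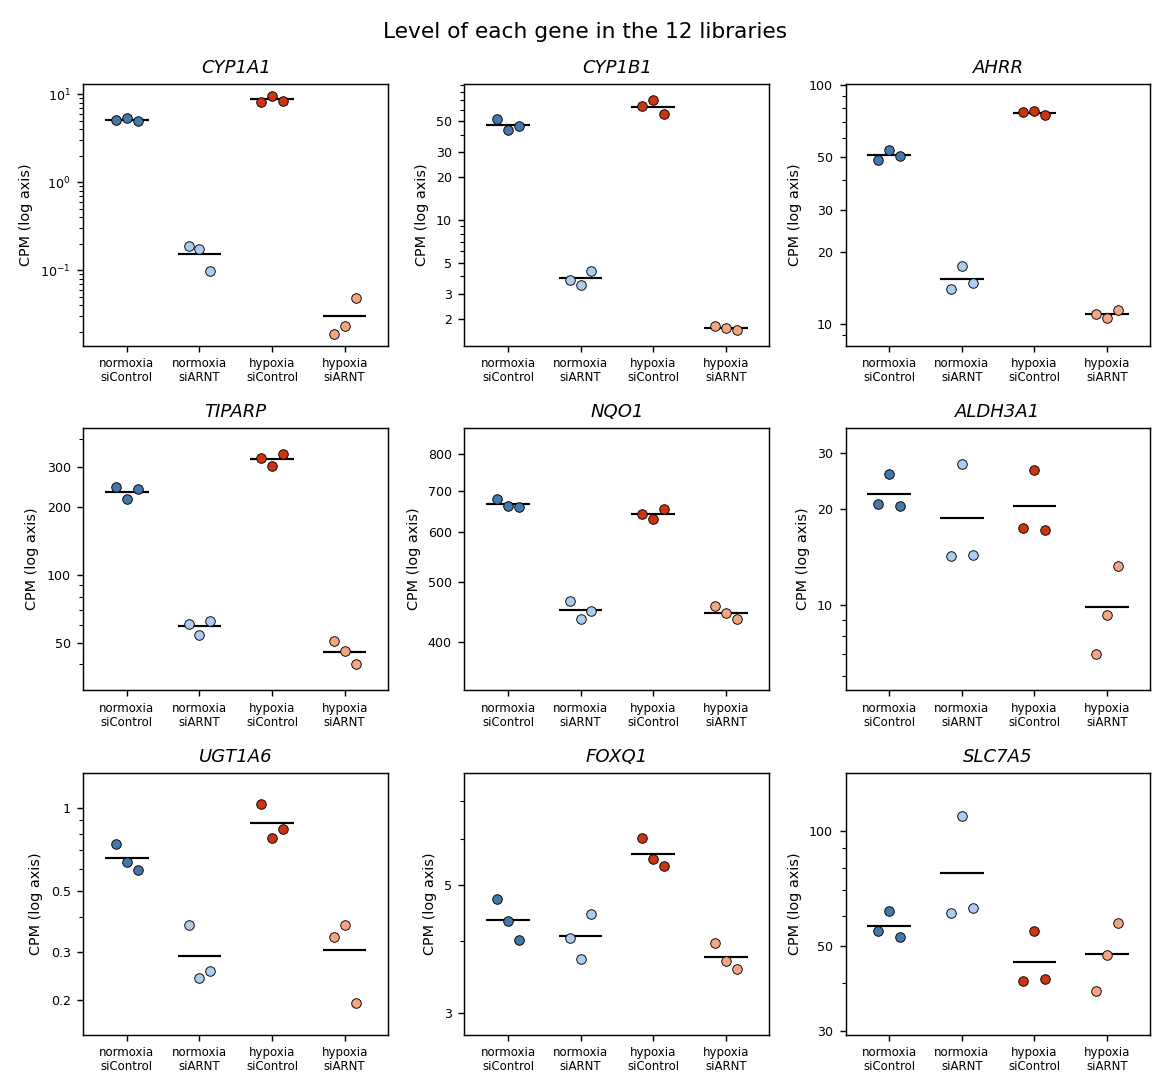
CPM of each of the 9 genes (vertical log axes, each with its own range) in the 4 groups, with 1 point per library (A, B, C from left to right) and a bar at the group mean. CYP1A1, CYP1B1, AHRR and TIPARP show the same order in all panels: hypoxia siControl highest, then normoxia siControl, normoxia siARNT and hypoxia siARNT, with no overlap between groups.

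CYP1A1 (ENSG00000140465.9, chr15:74719542-74725610, minus strand), a cytochrome P450 that oxidises polycyclic aromatic hydrocarbons, gave 5.02, 5.32 and 4.92 CPM in normoxia siControl and 8.22, 9.62 and 8.24 in hypoxia siControl. In normoxia siARNT it was at 0.187, 0.172 and 0.0981 CPM, which are 16, 10 and 5 reads. In hypoxia siARNT it was at 0.0189, 0.0234 and 0.0487 CPM, or 1, 1 and 2 reads. No 2 groups overlapped. From summed counts scaled by library size, CYP1A1 was 31.8-fold lower with siARNT in normoxia (95% exact counting interval 22.2 to 47.1) and 295-fold lower in hypoxia (115 to 1080). The fitted log2 changes were -4.99 ± 0.19 (adjusted p = 2.00e-08, edgeR) and -8.11 ± 0.25 (adjusted p = 2.65e-09). The latter rests on 4 reads and thus on the prior count. For log2 changes, ± here and below is an approximate standard error, the size of the change over the square root of the edgeR F statistic. For CYP1A1 it is too narrow wherever siARNT libraries enter, as their reads are few, and the counting intervals are wider.

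CYP1B1 (ENSG00000138061.7, chr2:38066973-38109902, minus strand), a related P450 that also hydroxylates oestradiol, was at 51.6, 43.4 and 46.2 CPM in normoxia siControl and 63.5, 70.7 and 55.8 in hypoxia siControl. With siARNT it was at 3.78, 3.46 and 4.34 in normoxia and at 1.78, 1.73 and 1.68 in hypoxia, so every siARNT library was below every siControl library. Its reads numbered 69 to 94 per library in hypoxia siARNT, which gives its log2 change of -5.19 ± 0.13 in hypoxia (adjusted p = 9.20e-10, edgeR) a firmer count base than that of CYP1A1. In normoxia the change was -3.61 ± 0.12 (adjusted p = 8.99e-09). CYP1B1-AS1 is an antisense transcript that overlaps 11.3% of the CYP1B1 exon bases. It changed by -1.13 in normoxia (adjusted p = 0.0188) and -2.42 in hypoxia (adjusted p = 0.000262) with siARNT, at 4 to 48 reads per library. The kit kept strand, but the counting is not stated to use it, so reads of the 2 genes may be mixed.

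AHRR (ENSG00000063438.12, chr5:304176-438291, plus strand), a repressor that resembles AHR and competes with it for ARNT, was at 48.5, 53.5 and 50.6 CPM in normoxia siControl and 77.0, 77.8 and 75.1 in hypoxia siControl. With siARNT it was at 14.0, 17.5 and 14.9 in normoxia and 11.0, 10.6 and 11.5 in hypoxia. The 4 groups did not overlap. The siARNT change was -1.72 ± 0.08 on the log2 scale in normoxia (adjusted p = 1.54e-07, edgeR) and -2.80 ± 0.09 in hypoxia (adjusted p = 2.65e-09). PDCD6 shares 244 exon bases with AHRR on the same strand and was not called in any of the 5 comparisons.

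TIPARP (ENSG00000163659.8, chr3:156673235-156706770, plus strand), the mono-ADP-ribosyltransferase PARP7 that limits AHR signalling, was at 246, 217 and 240 CPM in normoxia siControl and 330, 303 and 345 in hypoxia siControl. With siARNT it was at 60.7, 54.2 and 62.1 in normoxia and 50.7, 45.8 and 40.0 in hypoxia, again with 4 separate groups. Its log2 change with siARNT was -1.99 ± 0.09 in normoxia (adjusted p = 1.45e-07, edgeR) and -2.84 ± 0.10 in hypoxia (adjusted p = 4.35e-09).

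NQO1 (ENSG00000181019.8, chr16:69706996-69726951, minus strand), a quinone reductase whose gene is also a target of NRF2, was at 678, 662 and 660 CPM in normoxia siControl and 643, 630 and 653 in hypoxia siControl. With siARNT it was at 466, 436 and 449 in normoxia and 457, 445 and 436 in hypoxia. The siARNT libraries of either oxygen level were thus below all siControl libraries and overlapped each other. The log2 change was -0.57 ± 0.05 in normoxia (adjusted p = 1.72e-05, edgeR) and -0.53 ± 0.05 in hypoxia (adjusted p = 9.88e-06).

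UGT1A6 (ENSG00000167165.14, chr2:233691607-233773300, plus strand), a glucuronosyltransferase for phenols, was barely covered, at 8 to 68 reads per library. It was at 0.739, 0.634 and 0.594 CPM in normoxia siControl and 1.03, 0.773 and 0.837 in hypoxia siControl, and with siARNT at 0.374, 0.241 and 0.255 in normoxia and 0.34, 0.375 and 0.195 in hypoxia. Both siARNT groups lay below both siControl groups. The log2 change was -1.14 ± 0.25 in normoxia (adjusted p = 0.00839, edgeR) and -1.53 ± 0.26 in hypoxia (adjusted p = 0.000858). UGT1A6 is 1 of a cluster of genes with their own first exons and common later exons, and 28.5 to 36.5% of its exon bases lie in each of the other UGT1A genes, so its counts are uncertain.

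UGT1A10 and UGT1A1, neighbours in that cluster, carried more reads (UGT1A10 was named after its values were seen). UGT1A10 was at 46.8, 45.1 and 47.3 CPM in normoxia siControl and 44.2, 43.1 and 40.9 in hypoxia siControl, and with siARNT at 18.5, 16.1 and 18.0 in normoxia and 12.4, 11.0 and 9.25 in hypoxia. Its log2 change with siARNT was -1.40 in normoxia (adjusted p = 3.29e-06, edgeR) and -1.97 in hypoxia (adjusted p = 1.06e-07). UGT1A1, the bilirubin-conjugating enzyme, changed by -1.99 in normoxia (adjusted p = 2.68e-05) and -2.13 in hypoxia (adjusted p = 7.84e-06). UGT1A4, UGT1A7, UGT1A8 and UGT1A9 were too low to be tested. The 3 tested genes of the cluster all fell with siARNT at both oxygen levels, and their shared exons mean that they are not independent.

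**Figure D2:**
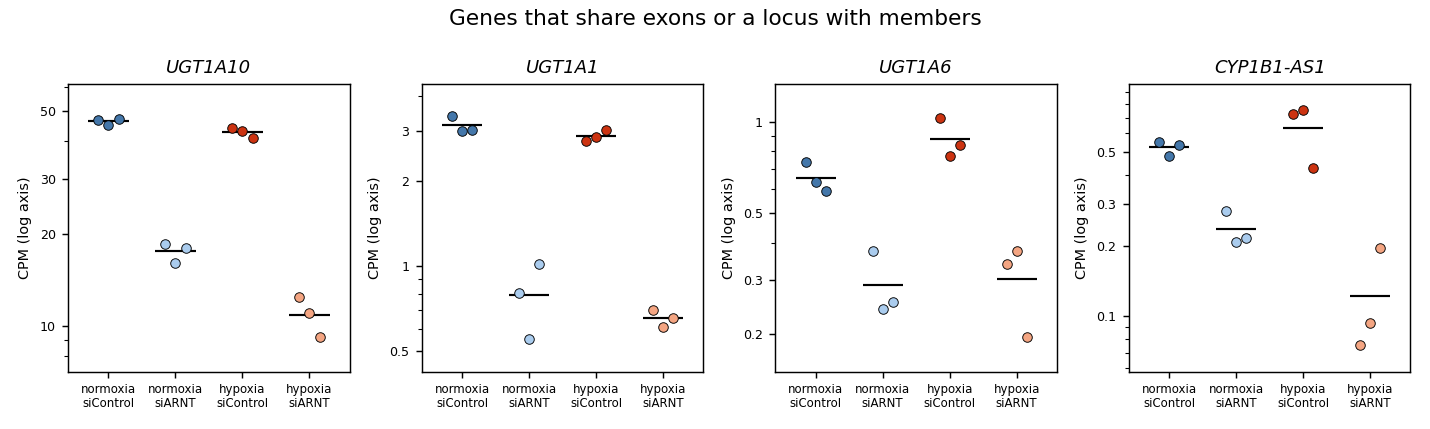
CPM (vertical log axes, each with its own range) of UGT1A10, UGT1A1 and UGT1A6, which share exons, and of CYP1B1-AS1, which overlaps CYP1B1 on the other strand, with 1 point per library and a bar at the group mean. In all 4 panels the siARNT libraries lie below the siControl libraries, and UGT1A10 stands highest, from 9.25 to 47.3 CPM.

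ALDH3A1, FOXQ1 and SLC7A5 were not called for siARNT in normoxia. ALDH3A1 (ENSG00000108602.13, chr17:19737984-19748943, minus strand), an aldehyde dehydrogenase, was at 20.8, 25.7 and 20.5 CPM in normoxia siControl and 17.5, 26.5 and 17.2 in hypoxia siControl, and with siARNT at 14.2, 27.6 and 14.4 in normoxia and 7.03, 9.3 and 13.3 in hypoxia. The first 3 groups overlapped, and the hypoxia siARNT libraries were below all others. The log2 change with siARNT was -0.25 ± 0.29 in normoxia (adjusted p = 0.543, edgeR) and -1.05 ± 0.30 in hypoxia (adjusted p = 0.0206). The call in hypoxia was lost without hypoxia siARNT A (adjusted p = 0.0668), without hypoxia siARNT B (0.0692), without hypoxia siControl B (0.0726) and with no low-count filter (0.0907), over a range of 1.6e-08 to 0.0907 in all 20 alternatives.

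FOXQ1 (ENSG00000164379.4, chr6:1312440-1314748, plus strand), a forkhead transcription factor of epithelial cells, was at 4.73, 4.33 and 4.01 CPM in normoxia siControl and 6.02, 5.54 and 5.39 in hypoxia siControl, and with siARNT at 4.05, 3.72 and 4.45 in normoxia and 3.97, 3.7 and 3.58 in hypoxia. The hypoxia siControl libraries were the highest and the other 3 groups overlapped in part. Its log2 change with siARNT was -0.10 ± 0.11 in normoxia (adjusted p = 0.524, edgeR) and -0.59 ± 0.11 in hypoxia (adjusted p = 0.00174). SLC7A5 (ENSG00000103257.4, chr16:87830023-87869488, minus strand), the light chain of a transporter that carries large neutral amino acids including tryptophan, was at 54.7, 61.7 and 52.8 CPM in normoxia siControl and 40.5, 54.8 and 41.0 in hypoxia siControl, and with siARNT at 61.0, 109 and 62.8 in normoxia and 38.2, 47.4 and 57.4 in hypoxia. Its siARNT changes of 0.46 ± 0.22 in normoxia (adjusted p = 0.147) and 0.07 ± 0.22 in hypoxia (adjusted p = 0.847) did not pass the test, and without normoxia siARNT B the former was 0.12.

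ALDH3A1 and SLC7A5 levels moved with the GC content that a library favoured. The slope of log2 level on the GC content of 9746 genes was 0.404 per 10 percentage points in normoxia siARNT B, 0.228 in hypoxia siARNT C, 0.116 in hypoxia siControl B and -0.038 in normoxia siControl B, each the highest of its group. These 4 libraries also held the highest ALDH3A1 and the highest SLC7A5 level of their groups. The longest transcript of ALDH3A1 is 59.5% GC and that of SLC7A5 61.1%. FOXQ1 is at 62.2%, and its highest library was not the one with the highest slope in any of the 4 groups. AHRR, at 57.4% GC, also had its highest libraries among the same 4. When every library was corrected for GC content, ALDH3A1 was lower with siARNT in normoxia as well, by -0.73 on the log2 scale (adjusted p = 3.96e-05, edgeR), and SLC7A5 turned from 0.46 to -0.09 (adjusted p = 0.14). With the same correction, SLC7A5 was lower in hypoxia, by -0.52 in siControl (adjusted p = 2.96e-07) and -0.45 in siARNT (adjusted p = 1.69e-05), and so was ALDH3A1, by -0.31 (adjusted p = 0.0184) and -0.72 (adjusted p = 0.000274). FOXQ1 lost its call for siARNT in hypoxia (-0.67, adjusted p = 0.102) and was at -0.63 in normoxia (adjusted p = 0.139). With the correction and a replicate block together, it was called at both oxygen levels, at -0.67 in hypoxia (adjusted p = 0.0304) and -0.65 in normoxia (adjusted p = 0.0429).

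**Figure D3:**
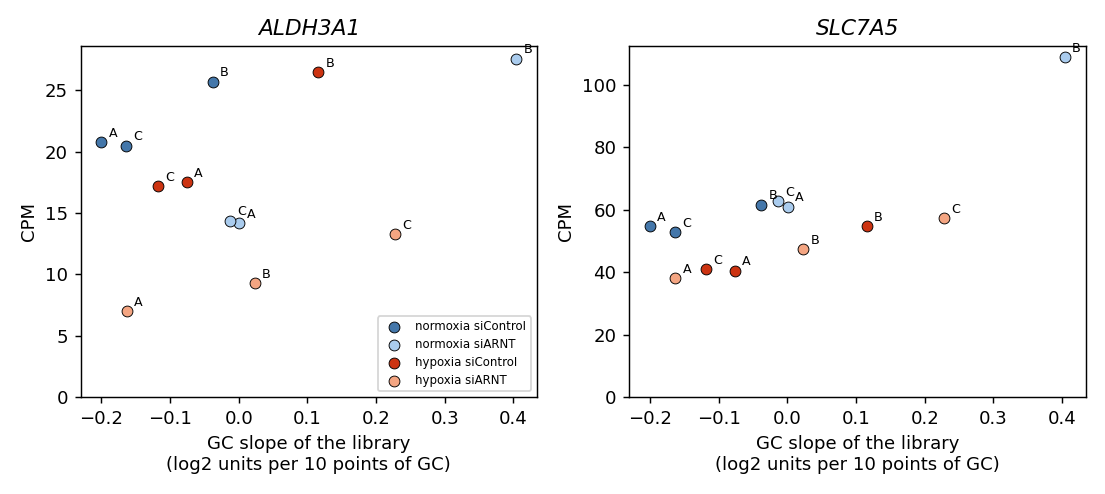
CPM of ALDH3A1 and SLC7A5 (vertical axes from 0) against the GC slope of each library, in log2 units per 10 percentage points of GC, with 1 lettered point per library and a colour per group. In every group the library with the highest (most positive) slope had the highest level of both genes, and normoxia siARNT B stands apart at a slope of 0.404.

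Hypoxia with ARNT intact raised 5 of the 9 genes: CYP1A1, AHRR, TIPARP, CYP1B1 and FOXQ1. The rises were small, at 1.71-fold for CYP1A1, 1.51-fold for AHRR, 1.39-fold for TIPARP, 1.34-fold for CYP1B1 and 1.3-fold for FOXQ1 between group means. In this comparison 25.3% of all tested genes were called, 10.4% up and 14.9% down. By edgeR none of the 9 fell, also at an unadjusted p under 0.05, and DESeq2 called 0 down. The median of the 9 was 0.42, beside 0.02 over all tested genes. Without overlap between groups, 6 were higher (21.5% of all tested genes) and 1, NQO1, was lower (25.3% of all). No member reached a log2 change of 1, which 2.84% of all genes did with a call.

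On the log2 scale CYP1A1 changed by 0.77 ± 0.14 (adjusted p = 0.00149, edgeR), AHRR by 0.59 ± 0.08 (adjusted p = 0.000249), TIPARP by 0.48 ± 0.09 (adjusted p = 0.00239) and CYP1B1 by 0.43 ± 0.10 (adjusted p = 0.00851). In these 4 genes each hypoxia siControl library was above each normoxia siControl library. FOXQ1 changed by 0.37 ± 0.11 (adjusted p = 0.0243), but lost its call in 7 of 21 alternatives, with adjusted p from 0.0197 to 0.725. Among them were the fits without hypoxia siControl A (0.32, adjusted p = 0.103), without normoxia siControl B (0.37, adjusted p = 0.0745) and without normoxia siControl C (0.33, adjusted p = 0.107), and the GC correction (0.15, adjusted p = 0.725). UGT1A6 was higher in all 3 hypoxia siControl libraries, yet its 0.42 ± 0.22 did not pass the test (adjusted p = 0.197). NQO1 at -0.05 ± 0.05 (adjusted p = 0.456), ALDH3A1 at -0.13 ± 0.29 (adjusted p = 0.786) and SLC7A5 at -0.31 ± 0.22 (adjusted p = 0.344) were not called.

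Under ARNT knockdown the same oxygen step lowered 4 of the 9 genes: CYP1A1, CYP1B1, AHRR and TIPARP. Of all tested genes 4.09% were called here, 2.21% up and 1.89% down, and with library totals as the only scaling 634 rose and 330 fell in place of 375 and 321. That count rested on single libraries: in place of 696 genes, 129 were called without hypoxia siARNT B (0.741%), 174 without hypoxia siARNT A (1.01%) and 178 without normoxia siARNT A (1.03%). By edgeR none of the 9 rose, with 0 at an unadjusted p under 0.05 and 0 by DESeq2. The median of the 9 was -0.49, beside -0.04 over all. Without overlap between groups, 6 were lower, as were 10.7% of all tested genes. With a log2 change of at least 1, 2 were called, against 0.588% of all. CYP1A1 fell from 31 reads over 3 libraries to 4, a 5.45-fold lower level (95% exact counting interval 1.93 to 21.2), with a fitted log2 change of -2.34 ± 0.40 (adjusted p = 0.0118, edgeR). CYP1B1 fell by 1.15 ± 0.12 (adjusted p = 0.00159), AHRR by 0.49 ± 0.08 (adjusted p = 0.0106) and TIPARP by 0.37 ± 0.09 (adjusted p = 0.0452). The hypoxia libraries of these 4 genes were all below the normoxia ones. ALDH3A1 at -0.93 ± 0.30 (adjusted p = 0.103) and SLC7A5 at -0.70 ± 0.22 (adjusted p = 0.0997) were also lower in all 3 hypoxia libraries but were not called by edgeR, whereas DESeq2 called both. Without normoxia siARNT B they were at -0.54 (adjusted p = 0.235) and -0.37 (adjusted p = 0.211).

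These falls depended more on the processing than the knockdown changes of the same 4 genes, which were called in every alternative. The TIPARP call was lost in 14 of 21 alternatives (adjusted p up to 0.247), the CYP1A1 call in 4 of 20 (up to 0.103), the AHRR call in 3 of 21 (up to 0.16) and the CYP1B1 call in 1 of 21, the fit to only the 6 samples compared (0.0549). The libraries whose loss ended the CYP1A1 call were hypoxia siARNT A (adjusted p = 0.103), hypoxia siARNT B (0.0731) and normoxia siARNT A (0.082), and for AHRR it was hypoxia siARNT B (0.0632). For TIPARP it was any 1 of 11 libraries, normoxia siARNT B being the exception. Without hypoxia siARNT B only 1 of the genes was called, and 2 were called without hypoxia siARNT A or without normoxia siARNT A. With only those 6 samples, edgeR called 22 of all 16335 genes and 0 members of the 8 tested (5 at an unadjusted p under 0.05). The direction of the 4 genes was the same in every alternative run.

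The hypoxia response of CYP1A1, CYP1B1, AHRR and TIPARP differed between siARNT and siControl. This interaction, the log2 hypoxia change with siARNT less the one with siControl, was -3.11 ± 0.42 for CYP1A1 (adjusted p = 0.00164, edgeR), -1.58 ± 0.16 for CYP1B1 (adjusted p = 0.000235), -1.08 ± 0.12 for AHRR (adjusted p = 0.000335) and -0.85 ± 0.13 for TIPARP (adjusted p = 0.00399). All 4 were called in each of the 20 alternatives, with adjusted p no higher than 0.0198. Over all tested genes 4.69% were called, 2.49% up and 2.19% down (424 and 373 genes, or 1125 and 370 with library totals as the only scaling), and the median of the 9 was -0.80 beside -0.02. With a difference of at least 1 on the log2 scale, 3 were called, against 1.05% of all. ALDH3A1 at -0.80 ± 0.41 (adjusted p = 0.298), FOXQ1 at -0.49 ± 0.16 (adjusted p = 0.0974), SLC7A5 at -0.39 ± 0.31 (adjusted p = 0.492), UGT1A6 at -0.38 ± 0.36 (adjusted p = 0.559) and NQO1 at 0.04 ± 0.07 (adjusted p = 0.75) were not called.

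Being called up by hypoxia in siControl and called down by hypoxia in siARNT was uncommon: 18 of the 16999 tested genes (0.106%) had both calls, and CYP1A1, CYP1B1, AHRR and TIPARP were 4 of them. This count was made after the values were seen. Among the others were TNFAIP3, an inhibitor of NF-kappaB signalling, IGFBP3, a carrier of insulin-like growth factors, and PLIN2, a coat protein of lipid droplets, also named after their values were seen. Most genes behaved otherwise, with 23.7% of tested genes above 0 in siControl and below 0 in siARNT at any size and 28.6% above 0 in both.

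**Figure D4:**
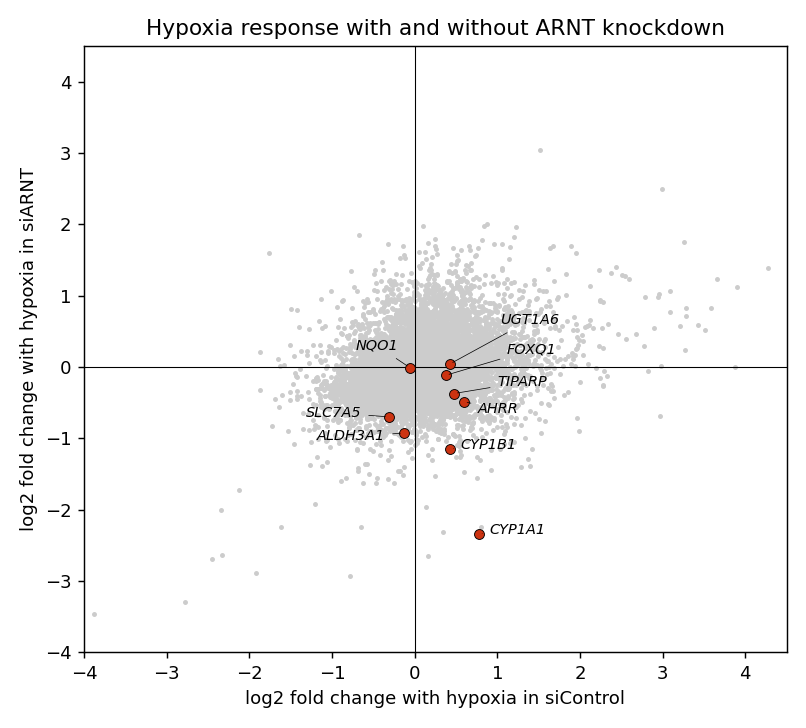
Log2 fold change with hypoxia in siControl (horizontal) and in siARNT (vertical) for the 16999 tested genes (grey, 2 lie outside the axes) and the 9 members (red). CYP1A1, CYP1B1, AHRR and TIPARP lie at the lower right, above 0 in siControl and below 0 in siARNT, and NQO1 lies near 0 on both axes.

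**Figure D5:**
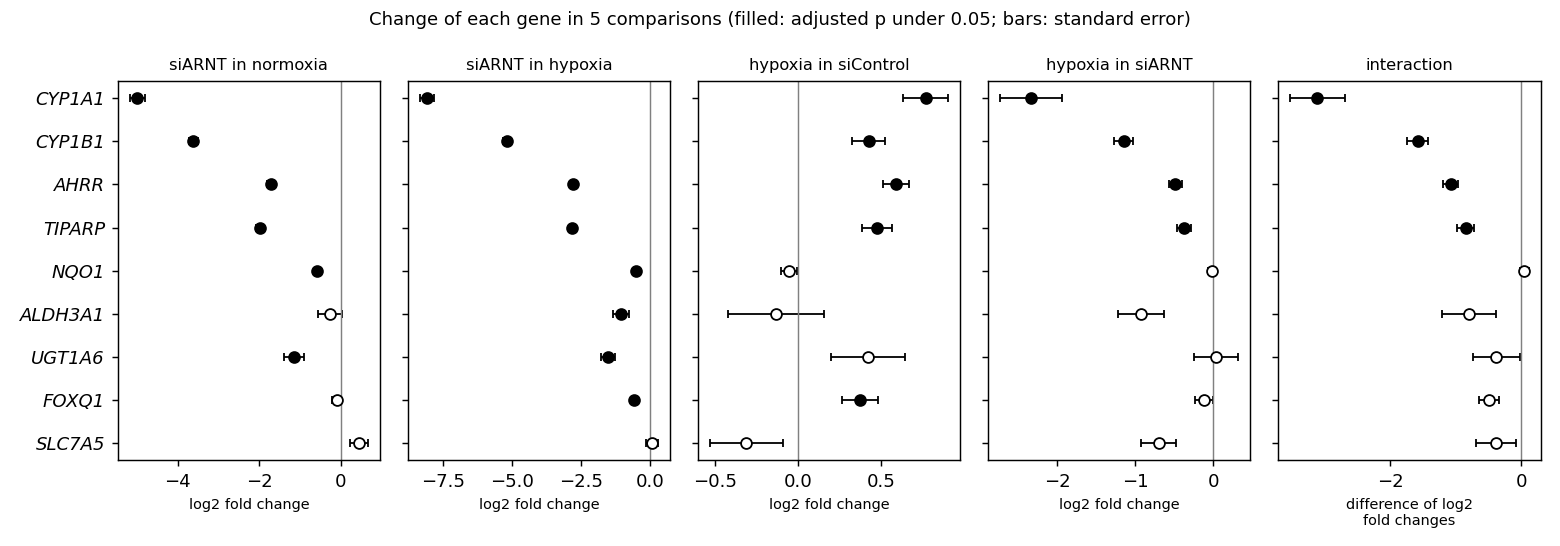
Log2 fold change (points) of the 9 genes in 5 comparisons, each panel with its own horizontal range, filled where the adjusted p was under 0.05. Bars are an approximate standard error, the size of the change over the square root of the edgeR F statistic. They are too narrow for CYP1A1 wherever siARNT libraries enter. From the left, 6, 8, 5, 4 and 4 of the 9 are filled, and NQO1 is filled in the siARNT panels alone.

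The machinery that carries AHR was measured through a list of 13 genes, of which ARNT2 was too low to be tested. AHR itself was at 186, 176 and 187 CPM in normoxia siControl and 194, 186 and 181 in hypoxia siControl, and with siARNT at 208, 177 and 223 in normoxia and 278, 230 and 219 in hypoxia. It rose with siARNT in hypoxia by 0.38 ± 0.10 on the log2 scale (adjusted p = 0.0126, edgeR) and was not called in normoxia at 0.15 ± 0.10 (adjusted p = 0.285). Of the 12 tested genes, 4 fell with siARNT in normoxia: ARNT, the targeted gene itself, NCOA3, CUL4B and PTGES3. In hypoxia 3 fell (ARNT again, CUL4B and NCOA3) and 3 rose (AHR, NCOA1 and HSP90AA1). Over all tested genes 10.8% fell and 9.42% rose in normoxia, and 14.7% fell and 14.4% rose in hypoxia. HSP90AA1, the chaperone that holds AHR in the cytoplasm, fell with hypoxia in siControl by 0.49 ± 0.09 (adjusted p = 0.00222), and its hypoxia change differed between the siRNAs by 0.53 ± 0.13 (adjusted p = 0.041). The median of the 12 stayed between -0.09 and 0.11 in the 5 comparisons.

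A second list held 20 other genes linked to AHR in the literature, of which 11 were tested, and none of them is a member. With siARNT 6 of the 11 fell in normoxia and 9 of the 11 in hypoxia, where 10.8% and 14.7% of all tested genes fell. The medians of the 11 were -0.45 and -0.68, beside 0.01 and 0.02 over all genes. UGT1A1, which shares exons with the member UGT1A6, fell most in both, as given above. ABCG2, a drug efflux pump, fell by 0.77 ± 0.08 in normoxia (adjusted p = 8.59e-05, edgeR) and 0.52 ± 0.08 in hypoxia (adjusted p = 0.000585). IL1B, an inflammatory cytokine at 1.12 to 4.13 CPM, fell by 1.59 ± 0.14 in hypoxia (adjusted p = 6.41e-06) and rose with hypoxia in siControl by 0.83 ± 0.13 (adjusted p = 0.000748). CCNG2, cyclin G2, rose with hypoxia in both siControl (1.06 ± 0.08, adjusted p = 4.06e-06) and siARNT (0.55 ± 0.08, adjusted p = 0.00507). CYP1A2, the third gene of the CYP1 family, was too low to be tested.

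Of 9 genes that metabolise or carry tryptophan and kynurenine, the source of natural AHR ligands, 5 were tested. TDO2, IDO1, IDO2 and IL4I1, the enzymes that open the pathway, were too low. KMO, which hydroxylates kynurenine, fell with siARNT by 0.58 ± 0.13 in normoxia (adjusted p = 0.0099, edgeR) and 1.04 ± 0.13 in hypoxia (adjusted p = 0.000114). KYNU, kynureninase, fell by 0.51 ± 0.08 (adjusted p = 0.00107) and 0.39 ± 0.08 (adjusted p = 0.00298). SLC3A2, the heavy chain that pairs with SLC7A5, rose with siARNT by 0.37 ± 0.11 (adjusted p = 0.0365) and 0.35 ± 0.11 (adjusted p = 0.0312), whereas SLC7A5 was not called. SLC3A2 and SLC7A5 are also targets of ATF4, the amino acid stress factor. On the ATF4 list, 4 of 9 tested genes fell with hypoxia in siControl, as did 14.9% of all tested genes. They were led by PSAT1 at -1.35 ± 0.08 (adjusted p = 6.09e-07) and ASNS at -0.80 ± 0.08 (adjusted p = 2.65e-05), enzymes that make serine and asparagine. With siARNT 2 of the 9 rose and 1 fell at each oxygen level, and SLC3A2 rose in both. The other to rise was CHAC1 in normoxia (0.91 ± 0.27, adjusted p = 0.037) and PSAT1 in hypoxia (0.90 ± 0.08, adjusted p = 6.51e-06). ASNS fell in normoxia (-0.29 ± 0.08, adjusted p = 0.0236) and ATF4 in hypoxia (-0.245 ± 0.063, adjusted p = 0.0119). Of all tested genes 9.42% rose and 10.8% fell in normoxia, and 14.4% and 14.7% in hypoxia.

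NQO1 is shared with NRF2, the antioxidant factor encoded by NFE2L2, and so a list of 14 NRF2 genes was set beside it (NFE2L2 is also on the list of other AHR-linked genes). With siARNT, 6 of the 14 fell and 1 rose in normoxia, and 5 fell and 2 rose in hypoxia, with medians of -0.19 and -0.25. Of all tested genes, 10.8% fell and 9.42% rose in normoxia, and 14.7% fell and 14.4% rose in hypoxia. NFE2L2 itself fell by 0.72 ± 0.10 (adjusted p = 0.000514, edgeR) and 0.76 ± 0.10 (adjusted p = 0.000133). AKR1C1, an aldo-keto reductase, fell by 1.03 ± 0.12 (adjusted p = 0.000149) and 1.32 ± 0.12 (adjusted p = 8.29e-06), and AKR1B10, another of that family, by 1.26 ± 0.16 (adjusted p = 0.000282) and 0.76 ± 0.16 (adjusted p = 0.00355). HMOX1, haem oxygenase, rose in normoxia by 0.68 ± 0.21 (adjusted p = 0.0426). The part of NFE2L2 in the NQO1 difference was not tested.

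HIF genes, the other pathway that needs ARNT, were read from a list of 10. Of these, 2 fell and 2 rose with siARNT in normoxia (median -0.01), while 9 fell in hypoxia (median -1.55). The shares of all tested genes were 10.8% down and 9.42% up in normoxia, and 14.7% down in hypoxia. With hypoxia all 10 rose in siControl, as did 10.4% of all tested genes. They were led by EGLN3 at 3.29 ± 0.08 (adjusted p = 1.62e-09, edgeR) and CA9 at 3.27 ± 0.17 (adjusted p = 4.4e-07). In siARNT 5 of the 10 still rose, as did 2.21% of all tested genes, whereas CYP1A1, CYP1B1, AHRR and TIPARP fell. The HIF list and the 4 AHR genes thus shared the sign of the interaction. There 9 of the 10 HIF genes were called down, against 2.19% of all tested genes.

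The genes whose level ran most like CYP1B1 over the 12 libraries, among the 9854 genes averaging 5 CPM or more, were B3GALT5 (Pearson r = 0.995 of log2 CPM), NET1 (0.995), ADGRF1 (0.994), PLAC8 (0.992) and TIPARP (0.992). For TIPARP they were EMP1 (0.997), ADGRF1 (0.995), NET1 (0.994), DUSP4 (0.993) and TNFRSF19 (0.993). Another member, TIPARP, was thus among the 5 nearest to CYP1B1. The r are descriptions over 12 points in 4 groups that share knockdown and oxygen. ADGRF1, an adhesion G protein-coupled receptor, was at 530 ± 16.5 CPM in normoxia siControl and 563 ± 22.6 in hypoxia siControl, and with siARNT at 236 ± 9.41 in normoxia and 199 ± 15.8 in hypoxia. Its siARNT groups were below its siControl groups, as for CYP1B1, which follows from its choice by r over the same libraries. The size of its fall was smaller. By rank correlation 0 of the 5 genes of CYP1B1 and 3 of the 5 of TIPARP were kept.

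Splicing of the members was covered by 16 deposited events with at least 20 reads per library on average, all in NQO1 and ALDH3A1 except 1 in AHRR. Percent spliced in (PSI), the portion of junction reads that include the exon or site, did not overlap between groups in 4 of the 16 for hypoxia in siControl, 1 for hypoxia in siARNT, 0 for siARNT in normoxia and 2 for siARNT in hypoxia. Over all events at that read limit, intron retention included, 10.9%, 9.38%, 13.0% and 10.8% had no overlap, in the same order. The 4 and the 2 were all among the 8 exon skips of members. Among all exon skips the shares were 12.0%, 10.3%, 14.3% and 11.9%. The 1 for hypoxia in siARNT skips multiple exons, a kind in which 8.12% of all events had no overlap. The differences in NQO1 were small: an exon of 114 nt (16:69748867-69748980 in the build of the event files, which is not named and is not the GRCh38 of the gene positions above) was included at 93.8 ± 0.461% in normoxia siControl and 94.7 ± 0.174% in hypoxia siControl, and with siARNT at 93.4 ± 0.465% in normoxia and 93.7 ± 0.152% in hypoxia. In a second event at the same site, which takes the 102 nt form of the exon, inclusion was 85.4 ± 0.591% in normoxia siControl and 87.4 ± 0.709% in hypoxia siControl. Both events share reads of that exon. In ALDH3A1 an exon of 100 nt (17:19642309-19642408) went from 96.2 ± 2.27% in normoxia siControl to 92.0 ± 0.418% in hypoxia siControl. The AHRR event skips exons of 153, 110 and 110 nt, lengths that exons of the overlapping PDCD6 also have, so its reads may belong to that gene. CYP1A1 had a single event, an intron retention with a mean of 14.2 reads, too few to use.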

How the data were processed

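Poly(A)-selected, stranded single-end RNA-seq of 12 libraries was read from the deposited gene files, which hold counts, whole numbers of reads per gene ID. Trimmomatic, STAR 2.4.2a and GRCh38.p10 are named in the submitters' processing notes, without roles, and the counter's settings are not given in the sources used here. The files do not match that build throughout: of 57820 gene IDs, 52338 were found in GENCODE 29 without their version and 29842 with it, and 2822 of 24368 exon-skipping events lay inside their gene's GRCh38 position. Event coordinates are therefore given as deposited, and exon lengths, GC content and gene overlaps come from an annotation other than the one used for counting. Lines that name no gene held 22.71 to 25.2% of reads and were left out. Another deposited table repeats these values for all 12 libraries. The deposited event files hold junction counts, PSI (a fraction) and intron signal (mean coverage), per the file headers. Of the IDs, 51996 were paired with symbols.

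Counts were fitted for all 12 libraries with edgeR 4.0.16 in R 4.3.3 (TMM, filterByExpr, robust quasi-likelihood), with Benjamini-Hochberg adjustment over 16999 genes per comparison and calls at 0.05. CPM use TMM sizes, and exon lengths and GC content (that of the longest transcript) come from GENCODE 29. Counting intervals are exact at 95% and, like all read-count limits here, cover counting error only, since reads carry no molecular identifiers. Fits were tested on simulated data. Alternatives were DESeq2 1.42.0, other scalings, no filter, a GC correction (loess, span 0.5), replicate blocks, 6-sample fits and leaving out each library.

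The members and lists were chosen with earlier results of these data known. Named genes are the 9 members, the AHR machinery list, up to 4 called genes with the largest change of each other list, and the 5 genes most like CYP1B1 and TIPARP; others are said to be named after their values were seen. The labels do not say what the letters pair. Deviations from group means of same-letter libraries correlated at 0.51, 0.744 and 0.494 (A, B, C) for hypoxia in siControl and 0.703, 0.88 and 0.386 for siARNT in normoxia. They correlated at 0.908, -0.121 and -0.851 for hypoxia in siARNT and 0.677, -0.086 and -0.719 for siARNT in hypoxia. For hypoxia in siControl different letters reached at most 0.412, below each same-letter value. For siARNT in normoxia, siControl A with siARNT C gave 0.76 and siControl C with siARNT A gave 0.493. These lie above the 0.703 and 0.386 of the same siControl libraries with their own letter. The correlations thus do not settle what the letters pair, and the main fit used no letter.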

Additional observations from a re-analysis of the deposited data

Results flagged for a closer look

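The hypoxia change differed between siARNT and siControl, by the interaction test of edgeR, for 4 of the 9 members. It also differed for 16 other genes of the lists or the UGT1A cluster, 9 of them from the HIF list of 10. Over all 16999 tested genes 4.69% were called, 2.49% up and 2.19% down. For the members the difference on the log2 scale was -3.11 for CYP1A1, -1.58 for CYP1B1, -1.08 for AHRR and -0.85 for TIPARP. In these 4 genes every hypoxia siControl library was above every normoxia siControl library. With siARNT every hypoxia library was below every normoxia library.

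UGT1A10, which shares exons with UGT1A6, differed by -0.57 (adjusted p = 0.0371, edgeR), and this call was lost in 9 of 20 alternatives (adjusted p from 8.23e-05 to 0.104). The difference was -0.51 for CCNG2 (adjusted p = 0.0278) and -1.20 for IL1B (adjusted p = 0.0054). It was 0.53 for HSP90AA1 (adjusted p = 0.041), 0.62 for PIR (adjusted p = 0.01) and 0.70 for PSAT1 (adjusted p = 0.00432), whose falls with hypoxia in siControl were larger than their changes in siARNT. Among the HIF genes it was -3.02 for CA9 (adjusted p = 3.42e-05) and -2.57 for EGLN3 (adjusted p = 8.09e-07). It was -2.32 for NDRG1, -1.93 for ADM, -1.78 for SLC2A1, -1.34 for PDK1, -1.10 for BNIP3L, -1.02 for LDHA and -0.77 for VEGFA, with adjusted p from 1.48e-05 (NDRG1) to 0.0433 (VEGFA). MUC1, of the ductal markers, differed by -1.21 (adjusted p = 0.000955).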

How the results depend on the processing

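The number of members called for siARNT in normoxia ran from 5 to 8, for siARNT in hypoxia from 6 to 8 and for the interaction from 3 to 5. For hypoxia in siControl it was 4 to 6, and 0 when a log2 change of at least 1 was also required. For hypoxia in siARNT it was 0 with only the 6 samples compared, 2 with that fold requirement and 1 to 4 when a library was left out.

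With the letter as a replicate block the counts were 5, 4, 6, 8 and 4 (hypoxia in siControl and in siARNT, then siARNT in normoxia and in hypoxia, then the interaction), the same as without it, and the block changed no member's call. With a block by siRNA and letter, 4 and 1 members were called for hypoxia in siControl and in siARNT. The labels do not say that libraries of such a block share a transfected well. Together with the replicate block, the GC correction gave 6, 6, 8, 8 and 5, while the share of all genes called was 43.6%, 22.8%, 34.5%, 47.3% and 19.5%, against 25.3%, 4.09%, 20.2%, 29.1% and 4.69% without both.

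Some values turned sign, among them SLC7A5 for siARNT in normoxia (0.46) and for the interaction (-0.39), which were not near 0. With the GC correction, without and with the replicate block, NQO1 was 0.0024 and 0.0023 for hypoxia in siControl and -0.046 and -0.045 for the interaction. UGT1A6 was -0.014 and -0.0054 and FOXQ1 0.11 and 0.13 for hypoxia in siARNT. SLC7A5 was -0.09 and -0.09 for siARNT in normoxia, -0.026 and -0.026 for siARNT in hypoxia, and 0.07 and 0.07 for the interaction. NQO1 for hypoxia in siARNT was 0.0023 with only the 6 samples and 0.012 with total count scaling. With a library left out, values ran from -0.032 to 0.011 for NQO1 and -0.12 to 0.3 for UGT1A6 (both hypoxia in siARNT), -0.08 to 0.21 for SLC7A5 (siARNT in hypoxia) and -0.31 to 0.06 for UGT1A1 (interaction). The cause was not tested.

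Over the 9 members, UGT1A10 and UGT1A1, 1033 alternative values kept their direction and side of the threshold, 44 lost a call, 14 gained one and 30 turned sign. Over all genes, the 696 calls for hypoxia in siARNT ran from 129 to 707 when a library was left out, moving by over 1.5 times for 10 of 12 libraries (not hypoxia siControl B or C). They were 136 with the block by siRNA and letter and 22 with only the 6 samples. The 797 calls of the interaction ran from 272 (without normoxia siControl C) to 1188 (without hypoxia siARNT C), with 9 of 12 libraries over 1.5 times, and were 373 with that block and 1495 with total count scaling. The 3431 calls for siARNT in normoxia ran from 1571 to 4148, and fell by over 1.5 times without normoxia siARNT B (2187) or any normoxia siControl library (1604, 2157 and 1571 for A, B and C). With the GC correction alone 7165, 3597, 5466, 7764 and 3031 genes were called. With total count scaling the median over all genes was 0.104 for siARNT in hypoxia. The longer motif was in 3 member windows and 5.51% of all. Of the 5 genes most like CYP1B1 and TIPARP, 0 and 3 were kept by rank correlation. UGT1A6 (8 to 68 reads) and CYP1A1 with siARNT (1 to 16 reads) are limited by depth.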
